A study of Mus musculus with 10 samples.

Results

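The genes examined here encode complex I of the respiratory chain: every row of the deposited count table whose symbol starts with Nduf, 51 of 24620 rows. They comprised 39 subunit genes, whose symbols go on with a, b, c, s, v or ab, 8 assembly factor genes, named Ndufaf, and 4 pseudogene or retrocopy entries (Ndufa12-ps, Ndufab1-ps, Ndufb4c and Ndufs5-ps). Enough counts for a test were present for 44 of them, 38 subunit genes and 6 assembly factor genes, among 7753 genes tested in the whole table.

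RNA was measured in muscle satellite cells (MuSCs), the stem cells of skeletal muscle, sorted as 3000 YFP-positive cells per library 3 days after injury by cardiotoxin (CTX). Control mice were Trpm7+/+; Pax7CreERT2/+; Rosa26YFP (5 libraries) and conditional knockout (cKO) mice were Trpm7flox/flox; Pax7CreERT2/+; Rosa26YFP (5 libraries). All were adult, carried the C57BL6 background and received tamoxifen and CTX, so the Cre allele, tamoxifen and injury were shared by both groups. The Cre was driven from Pax7 and recombines only in cells that express it, and the study compared the groups to learn what changes in activated MuSCs that lack Trpm7, a channel that admits magnesium. Whether each library came from a separate animal is not stated in the sources used here, so p-values measure the spread between these libraries.

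Complex I, NADH:ubiquinone oxidoreductase, takes electrons from NADH and passes them to ubiquinone while it pumps protons out of the mitochondrial matrix. Its matrix arm holds the flavin and the chain of iron-sulphur clusters, and its membrane arm holds the proton pumps. The hydrophobic core of the membrane arm is encoded by mitochondrial DNA and all other subunits by nuclear DNA, and assembly factors join the modules without remaining in the finished enzyme.

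Control libraries held 914361 to 1097709 counts and cKO libraries 205986 to 581121, and Nduf genes took 0.621% to 0.734% of the counts in control and 0.412% to 0.494% in cKO libraries. Levels are given as normalized CPM, the usual CPM unit computed after TMM scaling of the library totals. Each count is 1 molecule read at its 3′ end, so levels can be set side by side between genes without a correction for length. Trpm7 itself stood at 64.1, 66.2, 86.6, 79.9 and 74.1 normalized CPM in control replicates 1 to 5 and at 68.4, 97.6, 80.6, 44.8 and 51.6 in cKO replicates 1 to 5 (log2 fold change -0.10, SE 0.20, adjusted p = 0.717). The groups overlapped, where the floxed part lies relative to the 3′ reads is not given in the sources used here, and these counts do not check the genotype. The summed level of 12 MuSC identity genes was 2888 to 3354 in control and 2497 to 4052 in cKO libraries. Of the 11 tested 2 were lower (18.2%, against 24.2% of all genes), Myod1 (log2 fold change -2.01) and Itga7 (-0.60). Another 6 were higher (54.5%, against 24.5% of all genes), among them Pax7 (1.18) and Chodl (3.48). Of a list of 30 leukocyte markers, 29 were in the table and all 20 that were tested were higher in cKO libraries (24.5% of all genes were). The summed level of the 29 was 403 to 701 in control and 1502 to 6438 in cKO libraries. Cd3e, Cd79a and Nkg7 had no count in any control library. They had at most 1, 1 and 2 counts in a cKO library, under the floor of 3 counts per library used here. Endothelial markers (3 of 3 tested higher, sum 5.15 to 49.4 against 103 to 552) and fibro-adipogenic progenitor markers (5 of 5 tested higher, sum 198 to 318 against 817 to 1729) moved with the tested leukocyte markers, again against 24.5% of all genes.

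In cKO libraries 14 of the 44 tested Nduf genes were lower (31.8%) and 5 were higher (11.4%) at an adjusted p below 0.05 in edgeR's quasi-likelihood test, and 25 did not pass. Over all 7753 genes the corresponding shares were 24.2% lower and 24.5% higher. The genes that changed most were Ndufa12, Ndufc2 and Ndufa4, which were the 3 most abundant members in control cells, and the assembly factors Ndufaf6 and Ndufaf4. These 5 were the members that also passed a log2 fold change of 1.5, all in the lower direction (11.4%, against 3.53% of all genes lower and 8.42% higher). Normalized CPM did not overlap between genotypes for 14 members with control above cKO (31.8%, against 17.9% of all genes) and for 2 members with cKO above control, Ndufa13 and Ndufa7 (4.55%, against 16.5%). The median log2 fold change was -0.16 over the 38 subunit genes, -1.15 over the 6 assembly factor genes and -0.01 over all genes.

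**Figure D1:**
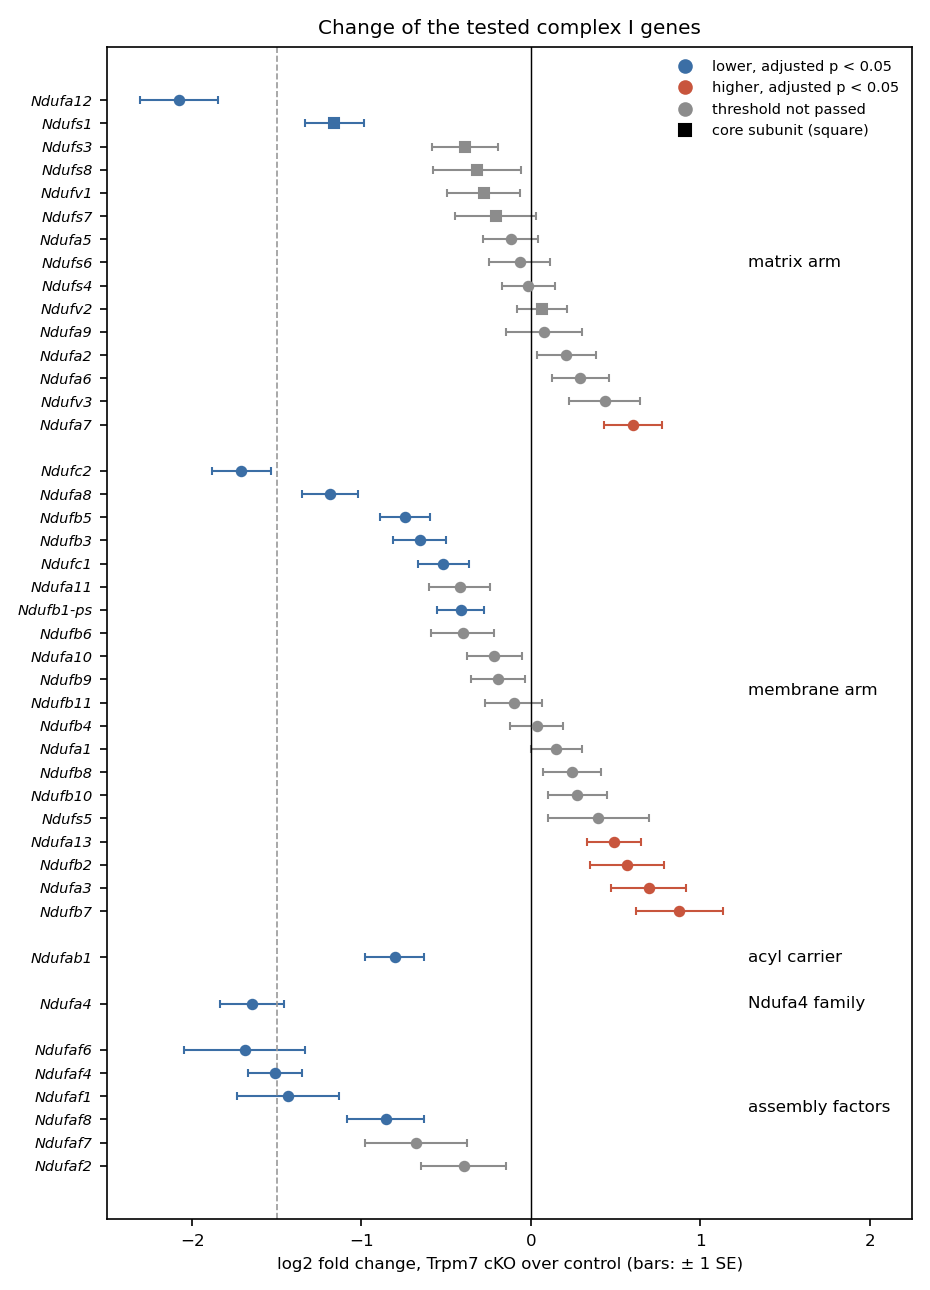
Log2 fold change of cKO over control for 43 of the 44 tested members (horizontal axis, bars ± 1 SE), grouped by the part of the enzyme and with the dashed line at -1.5. Lower genes (blue) are found in every group, higher genes (red) lie in the 2 arms, and all 6 assembly factors lie below 0.

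These calls depended on the scale and on what was held constant. With the mean log2 level of the 20 tested leukocyte markers as a covariate in edgeR, 0 members were lower and 0 were higher. Of all 7753 genes 126 were then lower and 358 higher. Among the members, 6 lower and 2 higher had an unadjusted p below 0.05. The median SE of their log2 fold changes was 0.49 in place of 0.18. All 20 markers were higher in cKO libraries, 18 of them without overlap, so this covariate and the genotype cannot be told apart. The covariate was run with edgeR only. Scaled on the MuSC identity genes, 17 members were lower and 1 was higher in place of 14 and 5. Of all 7753 genes 2034 were then lower and 1412 higher, in place of 1874 and 1899. Among the 11 tested identity genes 2 were themselves lower and 6 higher, so this scale is not independent of genotype. Per 3000 sorted cells, without scaling to the total, 37 members were lower and 0 higher in edgeR (0 also at an unadjusted p below 0.05). Of all 7753 genes 5162 were then lower and 380 higher, and their median log2 fold change was -1.15. This setting keeps any difference in capture or sequencing depth between libraries. Totals were 205986 to 581121 counts in cKO and 914361 to 1097709 in control libraries. In bulk libraries fewer cells of a type, less RNA per cell and lower capture or depth cannot be told apart.

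The stretches before the start in RefSeq are shown for Ndufa12 and Ndufc2, the subunit genes that fell most, for Ndufaf4, the assembly factor with the smallest adjusted p, and for Ndufb7, the gene that rose most. Each is the 150 bases next to the transcript start, 5′ to 3′ on the gene's strand, from RefSeq promoters on GRCm38.p6, with motif letters in capitals: TGCGCA is the core of the site of NRF-1 and CCGGAAG a site of ETS factors such as NRF-2/GABP, both known regulators of respiratory chain genes. No searched motif lies in the stretches of Ndufa12 and Ndufc2. GENCODE places the first base of Ndufa12 at 94198720 and that of Ndufb7 at 83566671, upstream of the RefSeq starts, so that the stretch of Ndufa12 lies inside its GENCODE gene and that of Ndufb7 runs into it.
Ndufa12 (chr10:94198885-94199034, + strand): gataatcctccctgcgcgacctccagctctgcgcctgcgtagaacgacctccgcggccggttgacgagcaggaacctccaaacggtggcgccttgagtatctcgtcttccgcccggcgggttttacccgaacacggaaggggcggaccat
Ndufc2 (chr7:97399853-97400002, + strand): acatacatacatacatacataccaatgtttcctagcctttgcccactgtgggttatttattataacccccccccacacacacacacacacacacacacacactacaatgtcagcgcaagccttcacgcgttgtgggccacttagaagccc
Ndufaf4 (chr4:24897933-24898082, + strand): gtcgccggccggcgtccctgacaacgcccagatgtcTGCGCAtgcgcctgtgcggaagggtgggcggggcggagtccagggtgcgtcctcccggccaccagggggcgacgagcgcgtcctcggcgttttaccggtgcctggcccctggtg
Ndufb7 (chr8:83566608-83566757, + strand): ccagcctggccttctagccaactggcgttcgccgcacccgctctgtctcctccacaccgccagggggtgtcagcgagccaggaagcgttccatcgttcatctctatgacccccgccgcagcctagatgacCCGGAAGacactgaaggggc

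Promoter windows, 250 bases before to 50 after the start, were found for 41 of the 51 members and searched on both strands. A member was counted when any of its windows held the motif, whereas the share over all promoters counts each window. TGCGCA was present in 11 members (26.8%, against 7.8% of 32851 promoters of the same length), AAGATGGC, a site of YY1, in 8 (19.5% against 2.7%) and CCGGAAG in 6 (14.6% against 8.9%). The oestrogen-related receptor half-site AAGGTCA was present in 3 members (7.3% against 4.7%) and the E-box CACGTG in 2 (4.9% against 7.2%). Among the 12 lower members with a window, 2 held TGCGCA, 2 held CCGGAAG and 2 held AAGATGGC. Among the 5 higher members these counts were 0, 1 and 1, and among the 22 that did not pass they were 9, 3 and 5. AAGGTCA and CACGTG were each present in 0 lower and 1 higher member. A match describes the sequence only.

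The core subunits carry the electron path of the matrix arm and have counterparts in bacteria. Of those reported here Ndufs1 was lower and Ndufv1, Ndufv2, Ndufs3, Ndufs7 and Ndufs8 did not pass. Ndufs1, the largest subunit, which holds iron-sulphur clusters near the site of NADH oxidation, stood at 241, 160, 226, 273 and 199 normalized CPM in control replicates 1 to 5 and at 117, 115, 73.6, 91.2 and 82.6 in cKO replicates 1 to 5. Every control library lay above every cKO library, and the log2 fold change was -1.16 (SE 0.18, adjusted p = 1.87e-05).

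The flavin-binding Ndufv1, where NADH is oxidized, gave 58.4, 50.1, 39.2, 65.5 and 52.7 in control and 46.8, 46.2, 59.6, 40.0 and 20.6 in cKO libraries, and the groups overlapped (log2 fold change -0.28, SE 0.21, adjusted p = 0.301). Its partner Ndufv2, which holds an iron-sulphur cluster, ranged from 92.7 to 108 in control and from 84.1 to 121 in cKO libraries (log2 fold change 0.07, SE 0.15, adjusted p = 0.738). Of these 3 subunits of the tip of the arm, Ndufs1 fell to 43.6% of its control mean, and the libraries of the other two overlapped.

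Ndufs7 lies by the pocket of ubiquinone. It ranged from 25.8 to 39.2 normalized CPM in control and from 20.8 to 46.5 in cKO libraries (log2 fold change -0.21, SE 0.24, adjusted p = 0.503). Its libraries did not separate the genotypes. Ndufs8, which carries the clusters that hand electrons on, ranged from 23.7 to 41.1 and from 18 to 35.1 (log2 fold change -0.32, SE 0.26, adjusted p = 0.327). Ndufs3, a subunit on which early assembly begins, stood at 38.3, 39.1, 38.1, 37.6 and 41.5 in control and at 28.8, 32.0, 28, 28.8 and 31 in cKO libraries. Its groups did not overlap, yet the test across all genes gave a log2 fold change of -0.39 (SE 0.20, adjusted p = 0.108), and 67.4% of the 31-base words in the last 500 bases of its transcript also occur in other genes, so its counts are uncertain.

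Among the 9 accessory subunits of the matrix arm, 1 fell, 1 rose and 7 did not pass. Ndufa12, a small subunit added late, stood at 1008, 629, 1118, 1180 and 606 normalized CPM in control replicates 1 to 5 and at 257, 211, 196, 270 and 108 in cKO replicates 1 to 5. Every cKO library lay far below every control library, and the mean fell from 908 ± 272 to 209 ± 64.0 (SD, n = 5 each), 23.0% of control. The log2 fold change was -2.08 (SE 0.23, adjusted p = 1.29e-06), the lowest of the 44 members, and stayed between -2.19 and -1.95 with any 1 library left out. The gene lies at chr10:94198720-94221443 on the + strand of GRCm38, in 4 exons, and 1.7% of the 31-base words near its 3′ end are shared, with Rps13.

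Ndufa7 rose. It gave 136, 118, 111, 102 and 95.4 normalized CPM in control and 140, 144, 203, 155 and 243 in cKO libraries, without overlap (log2 fold change 0.60, SE 0.17, adjusted p = 0.00563), and 11.3% of the words near its 3′ end are shared with unnamed gene models. The accessory subunits that did not pass ranged in log2 fold change from -0.12 (Ndufa5, adjusted p = 0.571) to 0.44 (Ndufv3, adjusted p = 0.0903). Between them lay Ndufs6 (-0.07, adjusted p = 0.781), Ndufs4 (-0.01, adjusted p = 0.95), Ndufa9 (0.08, adjusted p = 0.849), Ndufa2 (0.21, adjusted p = 0.344) and Ndufa6 (0.29, adjusted p = 0.158). Ndufa2, at 220 ± 36.1 in control and 259 ± 73.6 in cKO libraries (SD, n = 5), was the highest member in cKO replicates 3 and 5. Over the whole matrix arm, 2 of 16 genes were lower (12.5%, against 24.2% of all genes) and 1 was higher (6.25%, against 24.5%). The median log2 fold change of the arm was -0.09.

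Of the 20 nuclear genes of the membrane arm 6 were lower, 4 were higher and 10 did not pass, with a median log2 fold change of -0.15. Over all 7753 genes 24.2% were lower and 24.5% higher, so calls in either direction were not particular to this arm. Ndufc2, which sits with Ndufc1 beside the pumps, gave 1050, 715, 1058, 1111 and 743 normalized CPM in control replicates 1 to 5 and 324, 305, 203, 341 and 232 in cKO replicates 1 to 5. The groups were far apart, and the cKO mean was 30.1% of control (log2 fold change -1.71, SE 0.17, adjusted p = 1.91e-07). Its partner Ndufc1 fell less, from 190 ± 22.9 to 130 ± 20.7 (SD, n = 5, log2 fold change -0.52, SE 0.15, adjusted p = 0.00754), also without overlap. Ndufc2 lies at chr7:97400003-97407802 on the + strand, and no 31-base word of its last 500 bases occurs in another gene.

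Ndufa8, a subunit of the intermembrane face with paired cysteines, fell from 322 ± 43.0 to 138 ± 34.1 (SD, n = 5, log2 fold change -1.19, SE 0.16, adjusted p = 6.54e-06). Ndufb5 fell by 0.74 (adjusted p = 0.00035), Ndufb3 by 0.66 (adjusted p = 0.00166) and Ndufb1-ps by 0.41 (adjusted p = 0.0185) on the log2 scale. The control libraries of these 4 genes all lay above the cKO libraries. Ndufb1-ps is the name in the table for a gene that RefSeq lists as the protein-coding Ndufb1. For Ndufb3, 21.1% of the words near the 3′ end are shared with other genes, and Ndufb1-ps did not pass when libraries were scaled by total counts alone (adjusted p = 0.0643), with the 10-count filter (adjusted p = 0.0592) or after thinning (log2 fold change -0.05, adjusted p = 0.838).

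Ndufb7, a further subunit of the intermembrane face, rose most. It stood at 37.3, 42.1, 35, 26.0 and 40.4 normalized CPM in control and at 50.4, 37.3, 123, 64.0 and 82.6 in cKO libraries, with cKO replicate 2 inside the control range (log2 fold change 0.88, SE 0.26, adjusted p = 0.008). Ndufa3 gave 72.7, 67.2, 75.2, 43.3 and 72.9 in control and 72.0, 95.9, 147, 84.8 and 176 in cKO libraries (log2 fold change 0.70, SE 0.22, adjusted p = 0.0137), again with 1 cKO library inside the control range. Its 3′ end overlaps Tfpt on the opposite strand, and the strand setting of the counting is not given in the sources used here, so reads of these genes may not be told apart. Ndufa13, also known as a regulator of cell death, rose from 81.1 ± 5.87 to 117 ± 23.1 (SD, n = 5, log2 fold change 0.49, SE 0.16, adjusted p = 0.0144) and did not pass without cKO replicate 3 (adjusted p = 0.0502).

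Ndufb2 was the least stable of the calls. Its log2 fold change was 0.57 (SE 0.22, adjusted p = 0.038), it did not pass with any 1 of 8 of the 10 libraries left out, and its 3′ end overlaps Braf on the opposite strand. Without control replicate 1, 3, 4 or 5 the adjusted p was 0.0594, 0.0707, 0.0603 or 0.0689, and without cKO replicate 1, 2, 3 or 5 it was 0.0511, 0.0683, 0.0566 or 0.0943. On the scale of MuSC identity genes Ndufb7 alone of the 5 higher members passed, with Ndufa3 at an adjusted p of 0.0719, Ndufa7 at 0.0961, Ndufa13 at 0.18 and Ndufb2 at 0.193.

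The membrane arm genes that did not pass spanned log2 fold changes from -0.42 (Ndufa11, adjusted p = 0.0608) to 0.40 (Ndufs5, adjusted p = 0.287). On the lower side were Ndufb6 (-0.40, adjusted p = 0.0755), Ndufa10 (-0.22, adjusted p = 0.284), Ndufb9 (-0.19, adjusted p = 0.324) and Ndufb11 (-0.10, adjusted p = 0.643). On the other side were Ndufb4 (0.03, adjusted p = 0.876), Ndufa1 (0.15, adjusted p = 0.437), Ndufb8 (0.24, adjusted p = 0.249) and Ndufb10 (0.28, adjusted p = 0.199). Sharing of 31-base words near the 3′ end was 49.8% for Ndufs5, 48.3% for Ndufb6, 35.7% for Ndufb11 and 31.9% for Ndufb9, and these 4 are uncertain.

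Ndufab1 is the mitochondrial acyl carrier protein, a subunit that also serves fatty acid and lipoic acid synthesis. It gave 245, 231, 270, 248 and 209 normalized CPM in control and 115, 190, 154, 134 and 77.4 in cKO libraries, without overlap (log2 fold change -0.80, SE 0.17, adjusted p = 0.000723). Ndufa4, first described with complex I and now placed in cytochrome c oxidase, stood at 610, 409, 683, 706 and 478 in control and at 245, 167, 158, 213 and 114 in cKO libraries. It fell to 31% of its control mean (log2 fold change -1.65, SE 0.19, adjusted p = 9.33e-07), again without overlap. Its relative Ndufa4l2, known to be induced by low oxygen, had 0 counts in all control libraries and 2, 0, 1, 3 and 0 counts in cKO replicates 1 to 5, at or under the floor of 3 counts per library, so no fold is given.

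**Figure D2:**
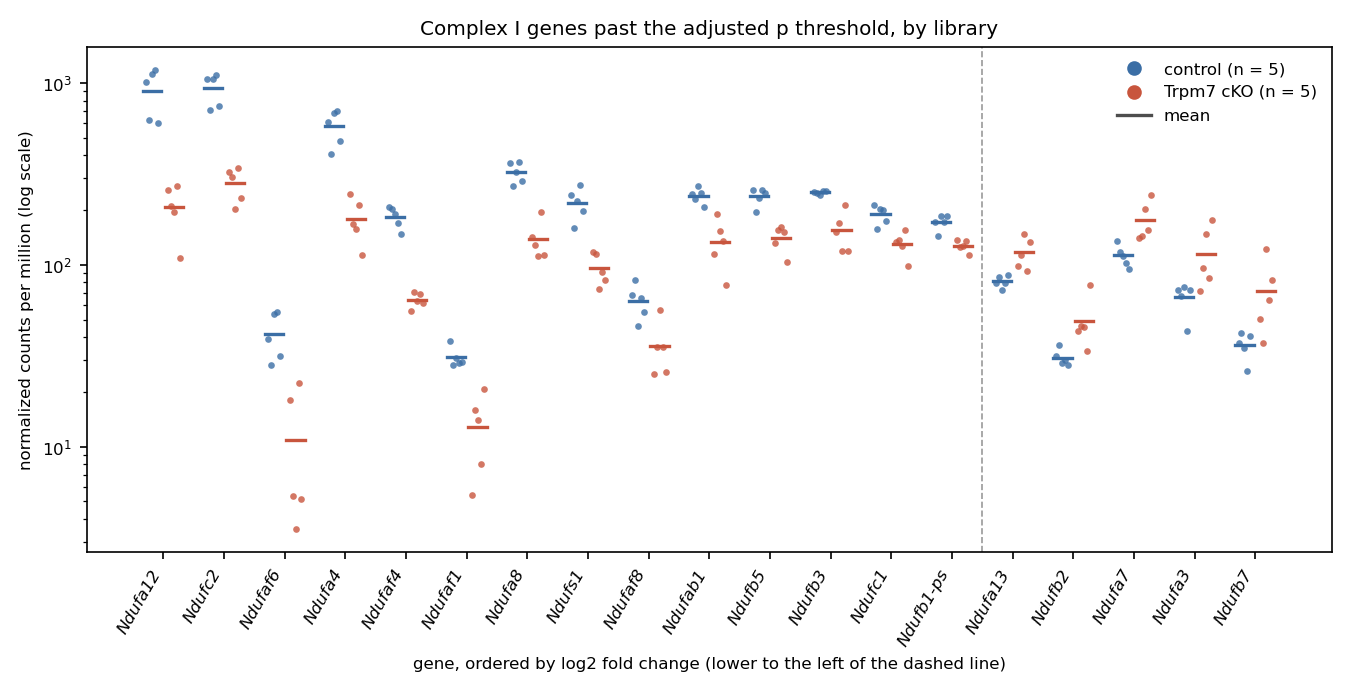
Normalized CPM (vertical axis, log scale) of the 19 members past the adjusted p threshold, with 1 point per library and bars at the mean of 5 control (blue) and 5 cKO (red) libraries. Ndufa12, Ndufc2 and Ndufa4 fall from control means of 908, 935 and 577, and genes right of the dashed line are higher in cKO libraries, some with overlapping points.

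All 6 tested assembly factors lay below 0 (50.4% of all genes did), 4 of them were lower (66.7%, against 24.2% of all genes) and 2 did not pass. Ndufaf6, needed for the biogenesis of the mitochondrially encoded subunit ND1, gave 39.2, 28.1, 53.6, 54.9 and 31.4 normalized CPM in control and 18, 5.33, 3.51, 22.4 and 5.16 in cKO libraries. The groups did not overlap (log2 fold change -1.69, SE 0.36, adjusted p = 0.000585), but the cKO values rest on 10, 3, 1, 14 and 1 counts. With any 1 library left out the log2 fold change lay between -2.14 and -1.44.

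Ndufaf4, which helps to build the module next to ubiquinone, stood at 208, 203, 191, 170 and 147 in control and at 55.8, 71.0, 63.1, 68.8 and 61.9 in cKO libraries. It was the most abundant assembly factor, at 34.9% of control (log2 fold change -1.51, SE 0.16, adjusted p = 2.76e-07). Its fold stood at the edge of the stricter threshold, at -1.498 with DESeq2, -1.496 with RLE factors, -1.44 scaled by total counts, -1.42 with the 10-count filter, -1.21 after thinning and -1.58 to -1.45 with any 1 library left out. Ndufaf1, a part of the complex that assembles the membrane arm around ND2, gave 38.3, 28.1, 30.9, 28.9 and 29.2 in control and 5.40, 16.0, 14, 8.0 and 20.6 in cKO libraries, without overlap (log2 fold change -1.43, SE 0.30, adjusted p = 0.000519). No 31-base word near the 3′ ends of Ndufaf6, Ndufaf4 and Ndufaf1 occurs in other genes. Ndufaf8, the partner of Ndufaf5, gave 67.9, 82.2, 46.4, 65.5 and 55 in control and 25.2, 35.5, 56.1, 35.2 and 25.8 in cKO libraries, with cKO replicate 3 inside the control range (log2 fold change -0.86, SE 0.23, adjusted p = 0.0039), and after thinning to 205986 counts its adjusted p was 0.053.

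Ndufaf7, a methyltransferase of the mitochondrial matrix, gave 15.3, 28.1, 24.7, 26.0 and 26.9 normalized CPM in control and 19.8, 17.8, 7.01, 16.0 and 5.16 in cKO libraries (log2 fold change -0.68, SE 0.30, adjusted p = 0.0679), and without control replicate 1 it passed (adjusted p = 0.0316). Ndufaf2, a relative of Ndufa12 that holds its place during assembly, ranged from 26.8 to 43.1 in control and from 18 to 36.1 in cKO libraries. Its libraries overlapped (log2 fold change -0.40, SE 0.25, adjusted p = 0.203), whereas those of Ndufa12 did not, and the difference between the 2 genes was not tested.

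The members without a test had few counts. Ndufaf5, an enzyme that hydroxylates Ndufs7, had 13 to 16 counts in control and 1 to 5 in cKO libraries, or 12.5 to 16.5 against 3.60 to 8.0 normalized CPM, without overlap. Ndufaf3, the partner of Ndufaf4, had 9 to 18 and 0 to 7 counts. Ndufa12-ps had 2 to 7 and 0 to 4 counts, Ndufab1-ps 0 to 2 and 0 to 2, Ndufb4c 0 to 1 and 0, and Ndufs5-ps had no count in any library.

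The changes of the subunit genes were read against their abundance. The 38 tested subunit genes summed to 7278, 5733, 6995, 7167 and 6018 normalized CPM in control replicates 1 to 5 and to 4315, 4361, 4690, 4392 and 4202 in cKO replicates 1 to 5. Ndufa12, Ndufc2 and Ndufa4 supplied 30.4% to 41.8% of that sum in control and 10.8% to 19.1% in cKO libraries. Without these 3, which were picked by the same comparison, the sum was 3980 to 4611 in control and 3489 to 4132 in cKO libraries, ranges that overlap.

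**Figure D3:**
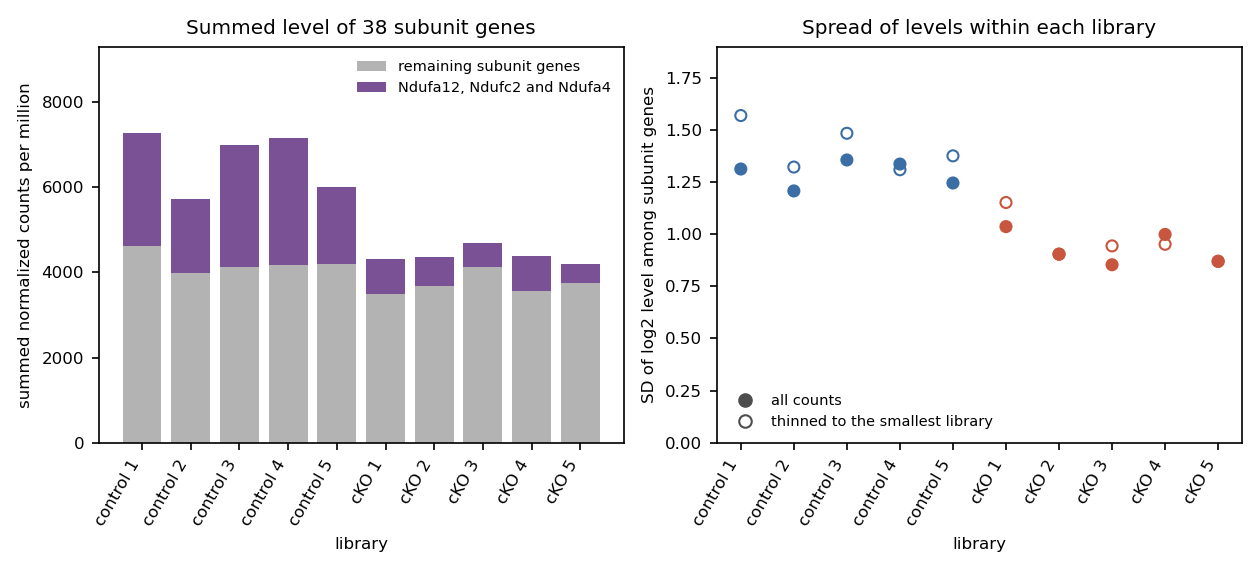
Left, summed normalized CPM of the 38 tested subunit genes in each library, with Ndufa12, Ndufc2 and Ndufa4 in purple and the remaining genes in grey. Right, SD of the log2 level among the subunit genes in each library, from all counts (filled) and after thinning to 205986 counts (open), where every control library (blue, 1.21 to 1.36 filled) lies above every cKO library (red, 0.854 to 1.04 filled).

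Levels of subunit genes were more alike in cKO libraries. The SD of log2 levels among the 38 genes was 1.21 to 1.36 in control and 0.854 to 1.04 in cKO libraries, and 1.31 to 1.57 against 0.870 to 1.15 after all libraries were thinned to 205986 counts. The highest mean was 41.2 times the lowest in control and 11.3 times in cKO libraries, while the median gene stood at 116 normalized CPM in both. As a description across genes, which are not independent, the level in control replicates 1 and 2 and the log2 ratio of cKO to control replicates 3 to 5 had Spearman's rho = -0.62 over 38 subunit genes. Of the 8 members most abundant in control cells 7 were lower, against 24.2% of all genes, Ndufa2 being the exception. The SD, the ratio of highest to lowest, rho and these 8 all include Ndufa12, Ndufc2 and Ndufa4, which were picked by the same comparison. None of these measures was computed without these 3, and other genes of like abundance were not compared.

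The order of the subunit genes also varied more among cKO libraries. Between libraries Spearman's rho over the subunit genes was 0.948 to 0.984 within control, 0.621 to 0.941 within cKO and 0.461 to 0.920 across genotypes. These values come from all counts, without thinning. Control libraries held 5648 to 8028 counts over all tested members. Depth was lowest in cKO replicate 5, with 844 counts against 1388 to 2857 in the other cKO libraries. Depth and genotype therefore cannot be told apart in this comparison.

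**Figure D4:**
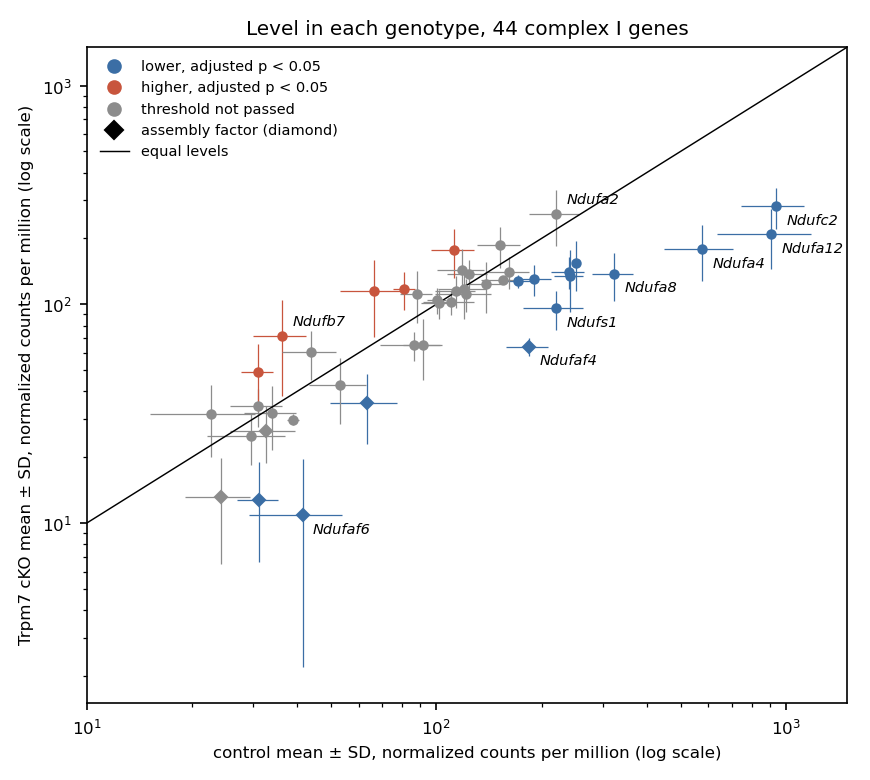
Mean normalized CPM ± SD of each tested member in control (horizontal axis) and cKO libraries (vertical axis), both on log scales, with the line of equal levels and assembly factors as diamonds. The abundant Ndufc2, Ndufa12 and Ndufa4 lie far below the line, at 30.1%, 23.0% and 31% of control, and Ndufb7 lies above it.

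Of the lower members, Ndufa12, Ndufc2 and Ndufa4 alone were also set beside the leukocyte markers within the cKO group. In cKO replicate 2, with the smallest leukocyte sum (1502 normalized CPM), Ndufa12, Ndufc2 and Ndufa4 stood at 211, 305 and 167, and in cKO replicate 4, with the largest (6438), at 270, 341 and 213. In cKO replicate 5, with the next largest sum (5885), they stood at 108, 232 and 114. In cKO replicate 1 (sum 3775) they stood at 257, 324 and 245, and in cKO replicate 3 (sum 3799) at 196, 203 and 158. All these values lay below every control library, and a relation to the leukocyte markers within the cKO group was not tested.

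The rest of the pathway moved as follows. Of 13 other assembly factor genes with an entry, 9 were tested, of which 4 were lower and none higher: Aifm1, which supports the import of intermembrane space proteins (log2 fold change -1.66, SE 0.24, adjusted p = 8.44e-06), Tmem70 (-1.04, SE 0.19, adjusted p = 0.000151), Tmem126a (-0.68, SE 0.21, adjusted p = 0.0115) and Dmac2, chosen for naming after its values were seen (-1.09, SE 0.37, adjusted p = 0.0184). The median of the 9 was -0.58, and the share called lower was 44.4%, against 24.2% of all genes. All 5 tested genes of the mitochondrially encoded subunits were lower (24.2% of all genes were), with a median of -1.52. Among these, mt-Nd5, a proton pump, changed most (8785, 4993, 8004, 9978 and 5259 in control and 2873, 2707, 1434, 1691 and 1208 in cKO libraries, log2 fold change -1.89, SE 0.26, adjusted p = 1.18e-05). mt-Nd6 lies on the strand opposite the other mt-Nd genes, and without a known strand setting its counts may hold transcripts of either strand. The genes mt-Nd3 and mt-Nd4l had too few counts for a test.

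Nuclear genes of complexes II to V were lower in 21 of 42 tested and higher in 3, with a median log2 fold change of -0.39. They included Atp5g3, which encodes the ring subunit of ATP synthase (log2 fold change -2.22, SE 0.18, adjusted p = 1.53e-08), and Uqcrq and Uqcrfs1 of complex III (-1.35 and -1.69, adjusted p = 1.19e-07 and 2.05e-07). By complex, 2 of 4 genes were lower in complex II, 5 of 9 in complex III, 5 of 11 in complex IV and 9 of 18 in complex V. Of 7 tested regulators of mitochondrial biogenesis 3 were lower (42.9%, against 24.2% of all genes) and none higher. The lower ones were Tfam, the packaging and transcription factor of mitochondrial DNA (log2 fold change -1.28, SE 0.25, adjusted p = 0.00034), Ppargc1b (-0.89, adjusted p = 0.00405) and Gabpa (-0.75, adjusted p = 0.0192). Nrf1, the factor whose motif core is shown above, had a log2 fold change of -0.03 (SE 0.20, adjusted p = 0.918) and Yy1 of -0.14 (SE 0.17, adjusted p = 0.528).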

How the data were processed

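RNA from 5 control and 5 Trpm7 cKO libraries was read by CEL-Seq2, which tags the 3′ end of each molecule with a unique molecular identifier (UMI). The authors deposited whole-number counts per gene without normalization, made, per the labels, with UMI-tools 1.1.4, Trim Galore 0.6.10, HISAT2 2.2.1 on GRCm38 and featureCounts 2.0.6. The labels also name DESeq2 1.30.1. The annotation release and strand setting are not given in the sources used here. Replicate numbers and genotypes came from the labels, every column was mapped to a library, and the labels of cKO replicates 4 and 5 share a number whose meaning is not stated. Within each genotype, no pair of libraries matched within sampling noise, and none was merged.

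Counts were filtered with filterByExpr of edgeR 4.0.16 (minimum count 10, minimum total 15) in R 4.3.3, which left 7753 of 21922 entries with a count. TMM factors and a robust quasi-likelihood fit with genotype as the term followed, with Benjamini-Hochberg adjustment over all 7753 genes. SE is the log2 fold change divided by the square root of the F statistic. Thresholds were an adjusted p below 0.05 and, for the stricter call, a log2 fold change beyond 1.5. Totals ran from 205986 to 1097709, so that 1 count is worth 0.957 to 5.16 normalized CPM, and intervals and the floor of 3 counts cover counting error only. The fit was tested on simulated counts.

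Members and gene lists were chosen with earlier results of these data known. Full values are given for members past both thresholds, the 3 members with the highest and the 3 with the lowest log2 fold change past the adjusted p threshold, the core subunits, the Ndufa4 pair and each tested assembly factor, and the other members are named in their group. From each further list at most 3 genes with the lowest adjusted p are named, with exceptions stated. GENCODE on GRCm38 held 49 of the 51 members and gave positions, overlaps and the 31-base words shared within the last 500 transcript bases. Alternatives were DESeq2 1.42.0, RLE factors, total counts, scaling on MuSC identity genes, counts per 3000 cells, other filters, thinning to 205986 counts, the replicate number as a block, a leukocyte covariate, each library left out, cKO replicates 4 and 5 summed, Ndufa4, Ndufa4l2 and entries named as pseudogenes (also Ndufb1-ps) left out, and a log2 threshold of 1. RefSeq promoter windows were matched by symbol. For 1 tested member, which is counted in the totals, the values are not reported here.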

Additional observations from a re-analysis of the deposited data

Results flagged for a closer look

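For 43 of the 44 tested members and each genotype, 86 sets of 5 libraries in all, the gap between the highest or lowest library and its neighbour was compared with the range of the set. In 7 sets that share was above Dixon's critical value of 0.71, and chance flags about 1 set in 20. The cKO libraries concerned were replicate 3 for Ndufa1 (175 normalized CPM, the others 124 to 133) and replicate 5 for Ndufa10 (181, the others 105 to 114) and Ndufb2 (77.4, the others 33.6 to 46.2). Each of these was the highest of its set, and replicate 5 was the smallest library, where 1 count is worth 5.16 normalized CPM.

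Among control libraries, replicate 4 was lowest for Ndufa3 (43.3, the others 67.2 to 75.2) and highest for Ndufs5 (35.6, the others 16.0 to 21.3). Replicate 1 was highest for Ndufaf1 (38.3, the others 28.1 to 30.9) and lowest for Ndufaf7 (15.3, the others 24.7 to 28.1). Of these 7 genes Ndufaf1, Ndufa3 and Ndufb2 were past the adjusted p threshold.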

How the results depend on the processing

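The 14 lower, 5 higher and 5 strictly called members and the subunit median of -0.16 moved as follows. On the scale of MuSC identity genes 1 was higher and the median was -0.33 (all genes -0.17). Per 3000 cells 37 were lower, 0 higher and 19 strictly called, with a median of -1.31 (all genes -1.15), and all 44 members lay below 0, among them 13 that were above it and passed the threshold here or before: Ndufa1 -1.02, Ndufa13 -0.71, Ndufa2 -1.01, Ndufa3 -0.55, Ndufa6 -0.87, Ndufa7 -0.63, Ndufa9 -1.09, Ndufb10 -0.94, Ndufb2 -0.62, Ndufb4 -1.10, Ndufb7 -0.35, Ndufb8 -0.96 and Ndufv2 -1.08. Without a filter 3 were higher and the median was -0.32 (all genes 0.17). After thinning, with 34 members tested, 3 were higher, 3 strictly called and the median was -0.00072. With the leukocyte covariate 0 were lower, 0 higher and 0 strictly called in edgeR (6 lower and 2 higher at an unadjusted p below 0.05), with Ndufab1 at 0.18 and Ndufb7 at -0.72. A log2 threshold of 1 gave 8 strictly called members. With each library left out, 14 to 15 were lower, 3 to 7 higher, 4 to 6 strictly called and the median lay between -0.18 and -0.12, with 3 higher without cKO replicate 3 and 7 without cKO replicate 4. DESeq2 and RLE factors kept all 44 members on their side of the adjusted p threshold, with 4 strictly called in each and by total counts alone, Ndufaf4 falling short. Without Ndufa4, Ndufa4l2 and entries named as pseudogenes, 12 of 42 were lower. Of all genes tested without a filter, 2630 of 21922 were lower and 2881 higher. After thinning 857 of 3925 were lower and 933 higher. Where no cause is given, it was not tested.

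With the replicate number as a block, 14 were lower, 4 higher and 5 strictly called, with a median of -0.15. Deviations of same-numbered libraries had correlations of -0.12 to 0.18, above 0.1 in 1 of 5 pairs. Pairs with different numbers reached -0.23 and 0.21, so these values cannot decide whether equal numbers mark a pairing. The smallest library held 844 counts over the tested members, and members with few counts in it, such as Ndufaf6 and Ndufaf7, are measured least precisely.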
